A study of Mus musculus with 12 samples.

Results

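Hand1, Hand2, Pitx1, Tbx4, Prrx1, Foxf1, Isl1, Tbx20 and Tshz1 encode transcription factors of the lateral plate mesoderm and of the hindlimb field. These 9 genes, of 52636 in the count tables, were found by symbol, and all 9 were present. They were selected on their counts in these same libraries, above all on the difference between knockdown and wild-type embryoid bodies. That difference is therefore given below as a description, and nothing is read from any test of it. The cells were of the E14 line, an established line of mouse embryonic stem cells (ESCs). The 4 groups, of 3 libraries each, were embryoid bodies (EBs) of knockdown (KD) cells, EBs of wild-type (WT) cells, ESCs of the KD line and ESCs of the WT line. KD cells carried an shRNA against circKat6b-e2, a circular RNA of the Kat6b locus, per the sample titles. EBs are clusters of differentiating ESCs and were sampled at day 6. All ESCs were cultured with LIF, the MEK inhibitor PD0325901 and the GSK3 inhibitor CHIR99021. The labels state neither a control shRNA in WT cells nor whether the KD line was a clone, so KD against WT also covers any other difference between these cultures. The labels do not say that replicates were separate cultures, so p-values measure the spread between these libraries. The knockdown itself was not checked, since counts per gene from poly-A selected RNA give no value for a circular RNA.

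The lateral plate is the mesoderm at the flank of the embryo. It splits into a layer that lines the gut and forms the heart, and a layer that lines the body wall and forms the limb buds. Hand1 and Hand2 are basic helix-loop-helix factors of heart, limb and extraembryonic mesoderm, and Hand1 also acts in trophoblast giant cells. Foxf1, a forkhead factor, marks the layer around the gut, and the T-box factor Tbx20 acts in the heart. Isl1, Pitx1 and Tbx4 are the factors known for the hindlimb field, with Isl1 also used by cardiac progenitors and motor neurons. Prrx1 is a homeodomain factor of limb bud and facial mesenchyme, and Tshz1 is a zinc finger factor of the trunk.

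Promoter sequences from RefSeq (GRCm38.p6) were at hand for 5 of the 9 members: Hand2, Tbx4, Prrx1, Isl1 and Tbx20. The 250 bases before the annotated start are shown for the first 4 of these, since Hand2, Tbx4 and Prrx1 were among the members with the highest KD to WT ratio in EBs and Isl1 among those with a ratio near 1.5. Letters run 5′ to 3′ on the gene's strand. Capitals mark TAATTA, a sequence bound by many homeodomain proteins, TAATCC, the sequence that PITX proteins are known to bind, and TATAAA, the TATA box, each searched on both strands.
Hand2, chr8:57320733-57320982, plus strand: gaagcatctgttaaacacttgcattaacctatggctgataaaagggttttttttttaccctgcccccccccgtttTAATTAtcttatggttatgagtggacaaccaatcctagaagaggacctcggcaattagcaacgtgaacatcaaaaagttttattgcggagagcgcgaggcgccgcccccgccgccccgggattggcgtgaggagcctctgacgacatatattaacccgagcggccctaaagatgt
Prrx1, chr1:163313651-163313900, minus strand: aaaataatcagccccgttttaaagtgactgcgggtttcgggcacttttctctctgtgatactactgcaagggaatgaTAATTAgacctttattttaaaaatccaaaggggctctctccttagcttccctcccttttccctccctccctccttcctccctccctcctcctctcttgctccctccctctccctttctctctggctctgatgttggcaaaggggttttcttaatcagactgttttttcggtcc
Tbx4, chr11:85896515-85896764, plus strand: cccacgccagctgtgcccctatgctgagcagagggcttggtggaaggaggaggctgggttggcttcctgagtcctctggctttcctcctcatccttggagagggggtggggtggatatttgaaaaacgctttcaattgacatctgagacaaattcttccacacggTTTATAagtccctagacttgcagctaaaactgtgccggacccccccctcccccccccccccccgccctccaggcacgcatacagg
Isl1, chr13:116309689-116309938, minus strand: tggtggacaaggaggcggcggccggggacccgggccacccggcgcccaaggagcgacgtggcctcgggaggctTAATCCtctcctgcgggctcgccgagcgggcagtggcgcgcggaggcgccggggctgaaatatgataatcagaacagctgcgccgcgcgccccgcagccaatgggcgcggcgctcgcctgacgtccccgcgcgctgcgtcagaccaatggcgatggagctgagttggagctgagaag

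Of the 5 windows, those of Hand2 and Prrx1 held TAATTA, which 4.84% of all 32851 promoter windows of the same length held. The Isl1 window held TAATCC, as did 6.25% of all windows, and the Tbx4 window held the TATAAA letters on the opposite strand, as did 12.4% of all windows. The E-box letters CANNTG, the core to which Hand proteins bind with a partner, stood in 3 places in the Tbx4 window, in 2 in the Hand2 window and in 1 in the Isl1 window, and in 66.2% of all windows. No match to the T-box half-site GGTGTGA (3.33% of all windows) or to the forkhead sequence TGTTTAC (3.17%) was found in the 5 windows. No marked match overlapped another motif that was searched. The windows differed in base composition. The GC share was 71.2% for Isl1 with 33 CpG dinucleotides and 68.8% for Tbx20 with 22, against 58.4% and 6 for Tbx4, 49.2% and 15 for Hand2, and 47.6% and 4 for Prrx1. The median of all windows was 52.4% and 6 CpG. The RefSeq start of Tbx4 lay 10343 bases inside the gene model used for counting. That of Hand2 lay 124 bases from the RefSeq start of Hand2os1, a noncoding RNA transcribed the other way, whose gene model used for counting reaches into Hand2 instead. Such matches describe letters and not bound sites.

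The libraries held 25377626 to 37770596 counts each. Replicates of a group differed by a chi-square of 4.96 to 9.57 per gene, except pairs with ESC WT replicate 2 (60.9 and 61.7), so ESC results are given with and without that library. Levels are in CPM, the count scaled to library size, after TMM normalization within a stage, as mean ± SD over the 3 libraries of a group unless given per library. Each mate of a read pair entered the counts separately, so intervals from counts are narrower than the number of fragments allows, and they cover counting error only.

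In ESCs the 9 genes were at or near 0 in both lines. Prrx1 had a count of 0 in all 6 libraries. Foxf1 had 0, 0 and 4 counts in KD ESCs and 0 in each WT library, and Hand2 had 0, 2 and 1 counts in KD ESCs and 0, 1 and 0 in WT ESCs. Hand1 had 2, 2 and 8 counts in KD ESCs against 18, 12 and 4 in WT ESCs. Isl1 had 2, 3 and 0 counts in KD ESCs against 18, 9 and 0 in WT ESCs. Pitx1, with 4, 6 and 18 counts in KD ESCs and 16, 4 and 2 in WT ESCs, and Tshz1, with 5, 6 and 19 against 22, 5 and 5, showed the same wide spread within each line. The KD and WT values overlapped for each of the 9 genes.

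The test of KD against WT in ESCs could be made for 2 members, Tbx4 and Tbx20, and the other 7 did not reach the minimum count of the filter. Tbx4 had 22, 19 and 13 counts in KD ESCs and 48, 10 and 15 in WT ESCs (log2 fold change −0.20, SE 0.63, adjusted p = 0.884 by edgeR). Tbx20 had 42, 16 and 25 counts in KD ESCs and 41, 9 and 42 in WT ESCs (0.03, SE 0.62, adjusted p = 0.982 by edgeR). Neither passed the threshold of 0.05, and 0 members had an unadjusted p under 0.05. The share of all tested genes called in either direction was 0.603%, or 97 of 16081. DESeq2 gave no adjusted p for either gene, and 0 members were called under the other 10 settings tried. Without ESC WT replicate 2, Tbx20 turned to −0.37 (adjusted p = 0.774 by edgeR) and Tbx4 stood at −0.51. Without ESC WT replicate 1, Tbx4 turned to 0.52 (adjusted p = 0.718 by edgeR). With SEs of 0.63 and 0.62, small changes of Tbx4 and Tbx20 in ESCs were not detectable, and the other 7 members were not tested.

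All 9 members stood higher in WT EBs at day 6 than in WT ESCs, and the EB and ESC libraries did not overlap for any of them. The 9 were called higher by edgeR, where 42.5% of 18975 tested genes were called higher and 37.3% lower. The WT EB libraries also took part in the selection of the members, and the 7 members too low to test within ESCs entered this fit through the EB libraries, so nothing is read from that count. Hand1 reached 920.1 ± 9.38 CPM in WT EBs against 0.35 ± 0.19 CPM in WT ESCs, each scaled within its stage. On the shared scale of the fit of all 12 libraries the log2 fold change of Hand1 was 10.83 (SE 0.16). Summed over libraries, its count was 1826 times higher in EBs (exact 95% interval 1307 to 2637). Foxf1, with 6862 counts in WT EBs and 0 in WT ESCs, was at least 1578-fold higher, taking a floor of 3 counts over the ESC group. Prrx1, with 1076 counts in WT EBs and 0 in WT ESCs, was at least 247.5-fold higher. Hand2 had 2725 counts in WT EBs and 1 in WT ESCs, a ratio of 1880 (interval 337 to 74290). Without ESC WT replicate 2, which held that 1 count, Hand2 was at least 445-fold higher.

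The other 5 members had smaller ratios. Tbx20 was 92.2 times higher (75.1 to 114, log2 fold change 6.53, SE 0.27). Pitx1 was 69.4 times higher (45.7 to 111), Tshz1 39.0 times (27.5 to 57.2) and Isl1 35.5 times (24.3 to 54.0). Tbx4 had the smallest ratio of the 9, 5.71 times (4.47 to 7.38), with 604 counts in WT EBs and 73 in WT ESCs (log2 fold change 2.54, SE 0.28). Tbx4 and Tbx20 are the members that also passed the filter within ESCs. Without ESC WT replicate 2 the ratios were 72.5 for Tbx20, 60.2 for Pitx1, 37.8 for Isl1, 32.8 for Tshz1 and 4.70 for Tbx4. This contrast sets WT EBs against WT ESCs, and the KD libraries took part in the filter, scaling and dispersion of its fit. In KD cells the ratios of EBs to ESCs were 3169 for Hand1, 2758 for Hand2, 1541 for Foxf1, 582 for Pitx1, 267 for Isl1, 261 for Tshz1, 147 for Tbx20 and 92.6 for Tbx4, and Prrx1 was at least 1099-fold higher. These KD ratios use the EB KD libraries that took part in the selection and are given without a test.

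In day 6 EBs, 8 members stood higher in KD than in WT cells in each library, and Hand1 stood lower. No KD library overlapped a WT library for any member. Over all 17355 tested genes, 30.7% had all KD libraries above all WT libraries and 30.5% had them all below. At the edgeR threshold 8 members were called higher, where 28.0% of all genes were, and 1 lower, where 27.7% were. Since the members were selected with this comparison known, nothing is read from these counts. In bulk RNA, more cells of a type and more RNA per cell cannot be told apart.

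**Figure D1:**
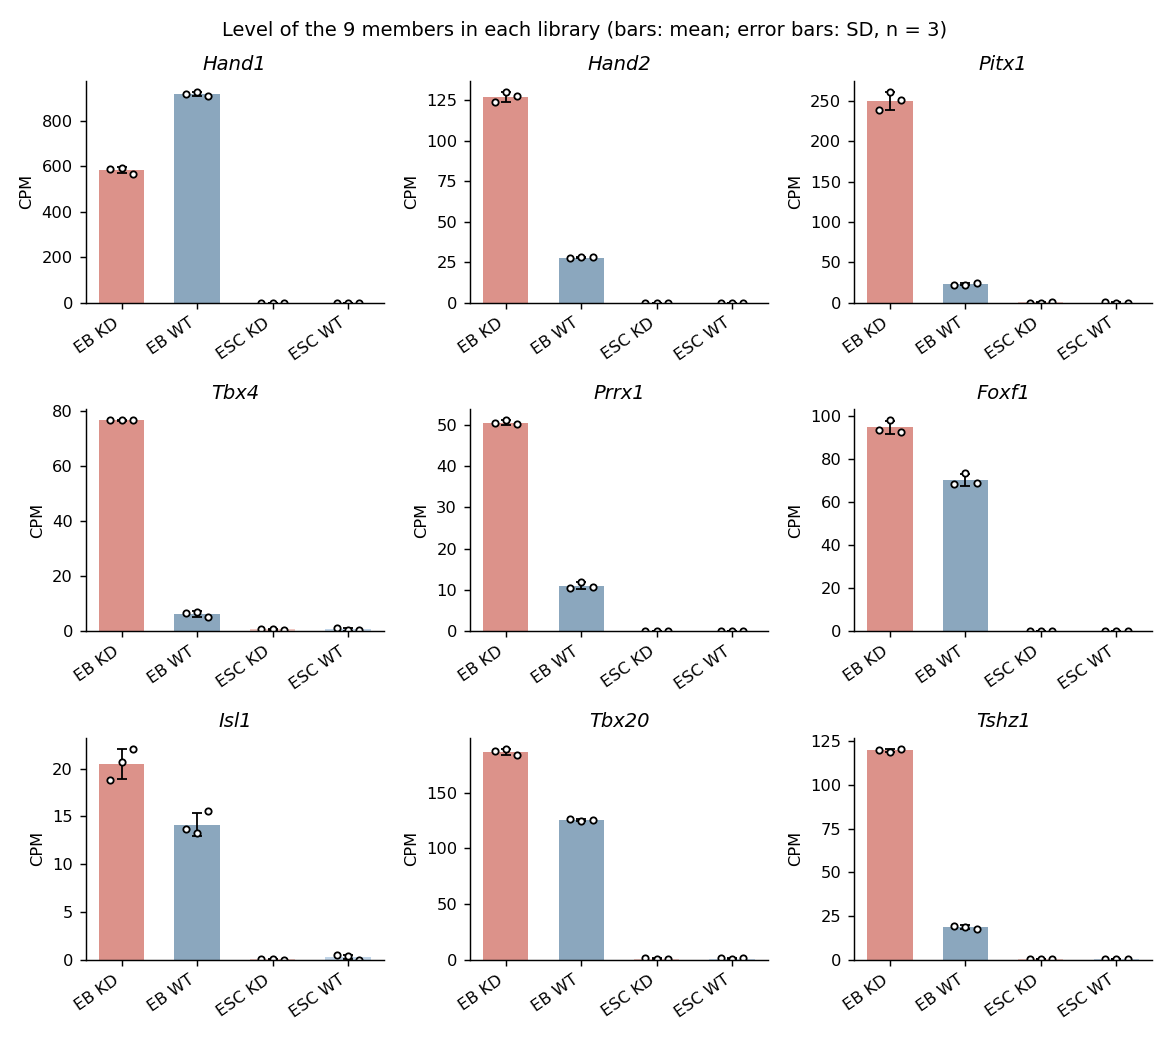
CPM of each member (y axis, from 0, a scale per panel) in the EB KD, EB WT, ESC KD and ESC WT libraries (points), with the mean as a bar and the SD as an error bar (n = 3). Hand1 was at 568 to 595 CPM in KD EBs and 911 to 929.8 CPM in WT EBs, the other members were higher in KD EBs, and all ESC values lay near 0.

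The hindlimb factors Pitx1 and Tbx4 had the widest gaps. Pitx1 (chr13:55825051-55836192, minus strand, GRCm38), a bicoid-type homeodomain factor that sets hindlimb identity, was at 239, 261 and 250.5 CPM in the KD EBs and at 21.5, 22.3 and 23.9 CPM in the WT EBs. The KD libraries lay about 11-fold above the WT libraries, a log2 fold change of 3.47 (SE 0.05). Tbx4 (chr11:85886422-85916097, plus strand), the T-box factor of the hindlimb bud and of lung mesenchyme, was at 76.8, 76.7 and 76.7 CPM in the KD EBs and at 6.51, 6.98 and 5.15 CPM in the WT EBs. The 3 KD values were nearly equal, and the fold change on the log2 scale was 3.63 (SE 0.09). Ranked by log2 fold change among all genes tested in EBs, Tbx4 stood at place 93 and Pitx1 at place 107.

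Isl1 (chr13:116298281-116309689, minus strand), a LIM homeodomain factor that acts before Tbx4 in the mouse hindlimb field, differed far less. It was at 18.8, 20.7 and 22.0 CPM in the KD EBs and at 13.6, 13.2 and 15.5 CPM in the WT EBs (a log2 fold change of 0.54, SE 0.10). The lowest KD value still lay above the highest WT value. Per kilobase of exon, Pitx1 stood 18.2 ± 1.09 times above Isl1 in KD EBs and 2.39 ± 0.11 times in WT EBs. Tbx4 stood 4.37 ± 0.35 times above Isl1 in KD EBs but at 0.52 ± 0.12 of Isl1 in WT EBs. Tbx4 thus stood above Isl1 in KD EBs and below it in WT EBs.

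The Hand genes differed in opposite directions. Hand1 (chr11:57828705-57832818, minus strand) was at 588, 595 and 568 CPM in the KD EBs and at 919.5, 929.8 and 911 CPM in the WT EBs, a log2 fold change of −0.66 (SE 0.03). Hand2 (chr8:57320983-57324633, plus strand) was at 124, 130.1 and 127 CPM in the KD EBs and at 27.3, 28.0 and 28.2 CPM in the WT EBs, a log2 fold change of 2.19 (SE 0.05). Neither gene's groups overlapped. Per kilobase, Hand2 made up 15.6% ± 0.44 of the Hand1 and Hand2 sum in KD EBs and 2.51% ± 0.051 in WT EBs. Hand1 remained the more abundant of the pair in all 6 EB libraries.

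Foxf1 and Tbx20 showed small differences between KD and WT EBs. Foxf1 (chr8:121084386-121088144, plus strand) was at 93.5, 98.1 and 92.4 CPM in the KD EBs and at 68.2, 73.5 and 69.0 CPM in the WT EBs (a log2 fold change of 0.43, SE 0.05). Tbx20 (chr9:24718138-24774303, minus strand) was at 188, 189 and 183 CPM in the KD EBs and at 126, 124 and 126 CPM in the WT EBs (0.57, SE 0.04). Their KD libraries lay above all WT libraries, by less than the gaps of Hand2, Pitx1 or Tbx4. Per kilobase, Tbx20 stood at 0.69 ± 0.011 of Tbx4 in KD EBs and at 5.83 ± 0.97 times Tbx4 in WT EBs.

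The mesenchymal factors Prrx1 and Tshz1 lay between these extremes. Prrx1 (chr1:163245119-163313710, minus strand) was at 50.4, 51.2 and 50.2 CPM in the KD EBs and at 10.4, 11.9 and 10.7 CPM in the WT EBs, a log2 fold change of 2.20 (SE 0.08). Tshz1 (chr18:84011627-84086404, minus strand) was at 120.1, 119 and 121 CPM in the KD EBs and at 19.3, 19.0 and 17.3 CPM in the WT EBs, a log2 fold change of 2.70 (SE 0.05). The spread within a group, at most 7.54% of the mean for these genes, was small beside either gap.

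Levels of different genes were compared per kilobase of summed exon length. In KD EBs the order was Hand1 (292 CPM per kilobase), Pitx1 (94.2), Hand2 (54.0), Foxf1 (39.2), Tbx4 (22.6), Tshz1 (21.2), Tbx20 (15.6), Isl1 (5.18) and Prrx1 (4.57), and no neighbours in this order had overlapping libraries. In WT EBs it was Hand1 (461 CPM per kilobase), Foxf1 (29.1), Hand2 (11.8), Tbx20 (10.5), Pitx1 (8.50), Isl1 (3.57), Tshz1 (3.27), Tbx4 (1.83) and Prrx1 (0.995). There Isl1 and Tshz1 overlapped and did not differ beyond their spread. Pitx1 stood above Hand2 and Foxf1 in KD EBs and below both in WT EBs. Hand1 made up 53.3% ± 0.76 of the members' summed level in KD EBs and 86.9% ± 0.18 in WT EBs. The sum itself was 548.9 ± 11.2 CPM per kilobase in KD EBs and 530.3 ± 5.58 in WT EBs. The KD libraries ran from 540.4 to 562 and lay above the WT libraries, which ran from 526 to 537.

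**Figure D2:**
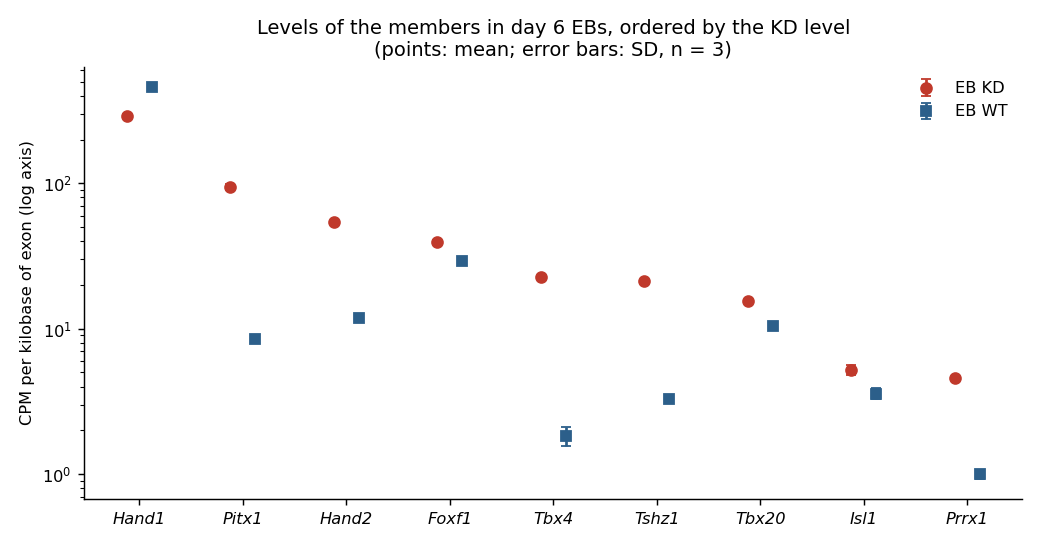
Level of each member in CPM per kilobase of exon (y axis, log scale) in EB KD (circles) and EB WT (squares) libraries, as mean with SD (n = 3), ordered by the KD level. Hand1 lay at 292 in KD and 461 in WT EBs, and Pitx1 and Tbx4 showed the widest gaps, at 94.2 and 22.6 in KD EBs and 8.50 and 1.83 in WT EBs.

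The closest paralogues of the members, like the other lists below, were chosen with earlier results of these data known. Their adjusted p-values are therefore not independent of that choice. The paralogues were not members and were tested over all genes. Of 7, 6 passed the filter in EBs, and 4 rose in KD EBs and 0 fell, with a median log2 fold change of 0.58 against 0.002 for all genes tested. Foxf2, the paralogue of Foxf1, was at 16.8 ± 1.16 CPM in KD EBs and 2.88 ± 0.48 CPM in WT EBs (a log2 fold change of 2.54, SE 0.15, adjusted p = 1.71e-15 by edgeR). Tshz2 (1.86, SE 0.39, adjusted p = 1.37e-04 by edgeR) and Tshz3 (0.72, SE 0.12, adjusted p = 1.02e-05 by edgeR) rose as well. Tbx5, the forelimb counterpart of Tbx4, was at 11.1 ± 0.77 CPM in KD EBs and 8.18 ± 1.27 CPM in WT EBs (0.44, SE 0.14, adjusted p = 0.00690 by edgeR), and lost its call without EB WT replicate 2 (adjusted p = 0.0687 by edgeR). Prrx2 was at 62.3 ± 4.79 CPM in KD EBs and 65.8 ± 7.80 CPM in WT EBs and did not pass (−0.08, SE 0.08, adjusted p = 0.426 by edgeR), except without EB WT replicate 1 (−0.17, adjusted p = 0.0283 by edgeR). Isl2 did not pass (0.28, SE 0.39, adjusted p = 0.578 by edgeR), and Pitx3 was too low to test. In the fit of all 12 libraries Foxf2 alone was still called.

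In WT cells 5 of the 7 paralogues rose between ESCs and EBs and 1 fell. Prrx2 stood at a log2 fold change of 2.85 (SE 0.12, adjusted p = 3.22e-12 by edgeR) and Tshz3 at 1.81 (SE 0.37, adjusted p = 3.86e-04 by edgeR). Pitx3 fell (−2.95, SE 0.82, adjusted p = 0.00388 by edgeR), and Tshz2 did not pass (1.46, SE 0.89, adjusted p = 0.142 by edgeR) but did without ESC WT replicate 2 (2.63, adjusted p = 0.0209 by edgeR). In ESCs 0 of the 3 tested paralogues were called between KD and WT by edgeR, and likewise 0 by DESeq2.

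**Figure D3:**
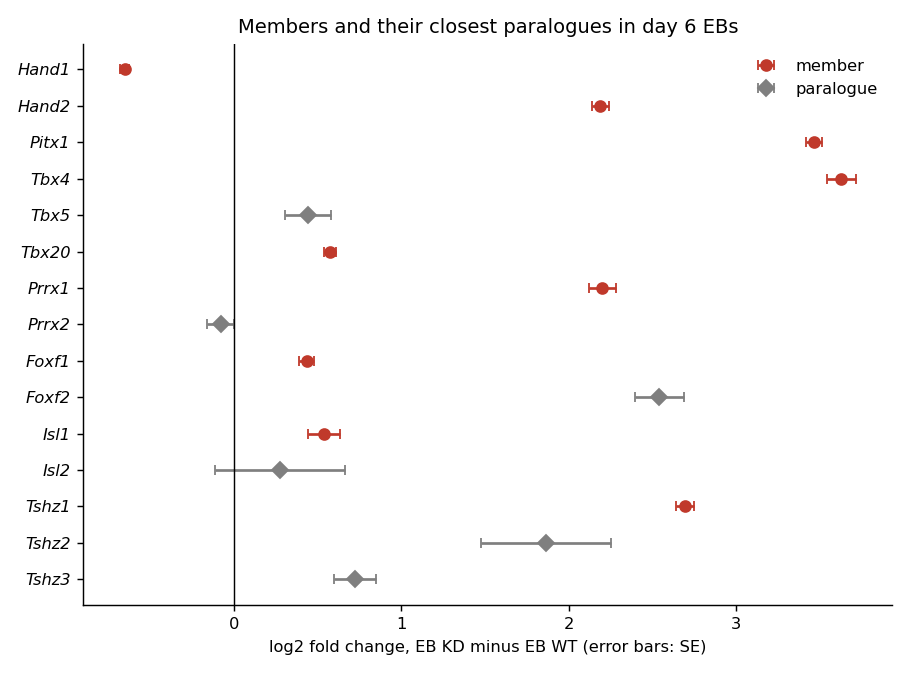
Log2 fold change of KD minus WT in day 6 EBs (x axis, error bars SE) for the 9 members (circles) and the 6 paralogues that could be tested (diamonds), 1 row per gene. Hand1 lies left of 0 at −0.66, Tbx4 farthest right at 3.63, and Prrx2 at −0.08.

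Of 12 posterior Hox genes and limb initiation signals, 11 rose in KD EBs and 1 fell, with a median log2 fold change of 3.35. Hoxc11 was at 13.5 ± 2.42 CPM in KD EBs and 0.258 ± 0.085 CPM in WT EBs (5.70, SE 0.25, adjusted p = 1.20e-18 by edgeR), and Hoxc10 at 18.4 ± 1.46 and 1.07 ± 0.25 CPM in KD and WT EBs (4.09, SE 0.17, adjusted p = 3.72e-19 by edgeR). Hoxd11 (4.30, SE 0.26) and Hoxd10 (4.27, SE 0.26) rose by a like amount, with edgeR adjusted p of 1.95e-13 and 2.47e-14. These HOX proteins pattern the lower trunk and hindlimb. The gene that fell was Fgf8, a growth factor of the limb ridge and primitive streak, at 7.23 ± 0.40 CPM in KD EBs and 22.4 ± 2.07 CPM in WT EBs (−1.63, SE 0.11, adjusted p = 6.34e-14 by edgeR). In WT cells 11 of the 12 rose between ESCs and EBs and 1 fell. When only the 6 WT libraries were fitted, 7 of these rises were still called.

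Of 7 genes of the forelimb level, 4 rose and 1 fell in KD EBs (median log2 fold change 0.77). Hoxc5 was at 7.01 ± 0.72 CPM in KD EBs and 1.91 ± 0.29 CPM in WT EBs (1.87, SE 0.20, adjusted p = 2.80e-09 by edgeR). Hoxb5 (1.34, SE 0.20, adjusted p = 1.25e-06 by edgeR) and Hoxa5 (1.09, SE 0.22, adjusted p = 1.02e-04 by edgeR) rose, and Tbx5, above, was the remaining rise. In the fit of all 12 libraries 2 of the 4 rises and 0 falls were called.

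Among 28 tested further transcription factors of the lateral plate, a list that includes Foxf2, Prrx2 and Tbx5, 17 rose and 4 fell in KD EBs (median log2 fold change 0.56). Twist1, a helix-loop-helix factor of mesenchyme and a partner of Hand proteins, was at 196 ± 17.6 CPM in KD EBs and 34.1 ± 1.84 CPM in WT EBs (2.52, SE 0.06, adjusted p = 1.91e-17 by edgeR). Irx5, a homeodomain factor of limb and heart, rose by 1.66 on the log2 scale (SE 0.17, adjusted p = 5.28e-10 by edgeR). Msx2, a homeodomain factor downstream of BMP signals, fell, at 98.7 ± 3.49 CPM in KD EBs and 249 ± 4.38 CPM in WT EBs (−1.34, SE 0.04, adjusted p = 3.56e-23 by edgeR). Tbx2, which lies beside Tbx4, was at 60.2 ± 2.97 CPM in KD EBs and 61.1 ± 2.46 CPM in WT EBs (−0.02, SE 0.06, adjusted p = 0.780 by edgeR). The list of the neighbouring paraxial mesoderm, from which somites form, had 2 rises and 4 falls among 14 tested genes. The Notch ligands Dll3 (−2.09, SE 0.21, adjusted p = 5.09e-10 by edgeR) and Dll1 (−1.36, SE 0.22, adjusted p = 3.34e-06 by edgeR) fell there, and Foxc2 (1.49, SE 0.27, adjusted p = 1.77e-05 by edgeR) and Pax3 (1.21, SE 0.26, adjusted p = 2.03e-04 by edgeR) rose. Of 7 tested genes of intermediate and axial mesoderm 2 rose and 3 fell. Lhx1, a factor of the early kidney field, was among the falls (−0.56, SE 0.11, adjusted p = 5.88e-05 by edgeR). In the fit of all 12 libraries 0 of these 3 falls (Lhx1 at adjusted p = 0.118 by edgeR) and 1 of the 2 rises were called, and of the lateral plate factors 2 of the 4 falls. The count of rises in intermediate and axial mesoderm was 1 in 7 of 11 settings, among them without EB KD replicate 2 or 3 or EB WT replicate 1 or 2.

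Of the pathways that act upstream of these factors, the BMP list had 4 rises and 8 falls among 16 tested genes. The antagonist Nog was at 9.39 ± 0.18 CPM in KD EBs and 21.2 ± 2.33 CPM in WT EBs (−1.17, SE 0.11, adjusted p = 6.30e-11 by edgeR). The ligand Bmp7 (−0.89, SE 0.06, adjusted p = 3.42e-13 by edgeR) and the target Id1 (−0.63, SE 0.03, adjusted p = 2.78e-16 by edgeR) fell, and the signal transducer Smad5 rose (0.52, SE 0.05, adjusted p = 8.71e-11 by edgeR). The hedgehog list had 6 rises and 2 falls among 13. Ihh, a ligand, rose by 1.65 (SE 0.08, adjusted p = 6.76e-18 by edgeR), and the co-receptor Gas1 by 1.62 on the log2 scale (SE 0.06, adjusted p = 1.67e-20 by edgeR). The retinoic acid list had 4 rises and 4 falls among 12. The synthesis enzymes Aldh1a2 (1.48, SE 0.25, adjusted p = 6.16e-06 by edgeR) and Rdh10 (1.02, SE 0.09, adjusted p = 4.69e-11 by edgeR) rose, and the binding protein Crabp1 (−2.27, SE 0.06, adjusted p = 4.36e-24 by edgeR) and the degrading enzyme Cyp26b1 (−1.35, SE 0.21, adjusted p = 2.76e-06 by edgeR) fell. In the fit of all 12 libraries 2 of the rises and 3 of the falls of the BMP list were called, and 1 of the falls of the hedgehog list.

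Hand proteins bind DNA with partners of the E protein class, which Id proteins capture. Of 10 tested genes for dimer partners and inhibitors, 4 rose and 4 fell in KD EBs, and 1 of the falls was called in the fit of all 12 libraries. The E protein genes Tcf12, at 162 ± 4.39 CPM in KD EBs and 107 ± 7.64 CPM in WT EBs (0.60, SE 0.04, adjusted p = 1.30e-12 by edgeR), and Tcf4 (0.64, SE 0.05, adjusted p = 1.83e-12 by edgeR) rose, as did Twist1. Id1 fell, as given above. Of 7 genes known as targets of the members, 6 were tested and 3 passed. Fgf10, the limb growth factor downstream of Tbx4, was at 24.5 ± 0.91 CPM in KD EBs and 20.1 ± 1.34 CPM in WT EBs (0.29, SE 0.09, adjusted p = 0.00494 by edgeR). Mef2c, a cardiac factor downstream of Isl1, rose by 0.58 (SE 0.20, adjusted p = 0.0137 by edgeR), and Vcam1 by 0.99 on the log2 scale (SE 0.39, adjusted p = 0.0305 by edgeR). Shh (0.22, SE 0.48, adjusted p = 0.722 by edgeR), Grem1 (0.74, SE 0.52, adjusted p = 0.243 by edgeR) and Hhip (−0.05, SE 0.38, adjusted p = 0.924 by edgeR) did not pass, and Nppa was not tested, at 0 CPM in KD EBs and 0.011 ± 0.019 CPM in WT EBs. The 3 calls were lost in the fit of all 12 libraries. Vcam1 also lost its call without any 1 of EB KD replicates 2 and 3 and EB WT replicates 1 and 2 (edgeR adjusted p from 0.0684 to 0.154), and Mef2c without EB KD replicate 1 (0.0783) or EB WT replicate 3 (0.0592).

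Markers of cell types that also use these factors were set beside them, and their part in the members' values was not tested. Mesenchyme and fibroblast markers, which go with Prrx1 and Twist1, had 9 rises and 1 fall among 11. Their summed level was 5181 to 5300 CPM in KD EBs and 2065 to 2106 CPM in WT EBs. Most of that sum was Fn1 and Vim. Fn1 was at 2385 ± 39.7 CPM in KD EBs and 940 ± 14.2 CPM in WT EBs, and Vim at 929 ± 17.4 and 472 ± 8.52 CPM. Both were also present in ESCs, with means of 760 (KD line) and 616 CPM (WT line) for Fn1 and 335 and 303 CPM for Vim. Col3a1, a fibrillar collagen gene, was at 828 ± 16.9 CPM in KD EBs and 11.3 ± 2.50 CPM in WT EBs (6.19, SE 0.15, adjusted p = 5.94e-06 by edgeR). The proteoglycan gene Lum (5.81, SE 0.14), the matrix gene Postn (4.52, SE 0.06) and the proteoglycan gene Dcn (4.06, SE 0.23) rose as well, with edgeR adjusted p of 1.73e-24, 2.13e-31 and 1.56e-15. None of the 11 stood at 0 in the EBs.

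Cardiomyocyte markers, which go with Tbx20, Hand2 and Isl1, had 1 rise and 8 falls among 13 tested. Their summed level over 15 genes was 74.0 to 79.5 CPM in KD EBs and 164 to 177 CPM in WT EBs, with Nppa and Pln at 0 in KD EBs and Pln at 0 in WT EBs. In ESCs the same sum ranged from 86.3 to 88.3 CPM (KD line) and from 86.2 to 129 CPM (WT line). CPM were scaled within each stage, so the ESC and EB sums are not on 1 scale and were not ranked against each other. How much of the sum came from heart muscle cells was not tested. Myl7, an atrial myosin light chain, was at 1.06 ± 0.18 CPM in KD EBs and 8.69 ± 0.51 CPM in WT EBs (−3.03, SE 0.21, adjusted p = 1.04e-13 by edgeR). Myh7 (−2.64, SE 0.12, adjusted p = 1.40e-18 by edgeR) and Myh6 (−2.62, SE 0.23, adjusted p = 1.39e-10 by edgeR), the myosin heavy chains of heart muscle, also fell. Mean Myl7 in ESCs exceeded both EB groups (KD line 28.0 CPM, WT line 38.8 CPM). Myh7 was lower in ESCs (KD line 0.131 CPM, WT line 0.206 CPM) than in EBs of the same line (4.15 and 25.9 CPM). Myh6 was at 0.994 ± 0.11 CPM in KD ESCs and 1.54 ± 0.60 CPM in KD EBs, a gap smaller than the SD of the EBs. In WT cells Myh6 was at 2.14 ± 0.39 CPM in ESCs and 9.56 ± 1.45 CPM in EBs. The rise, Ttn, was lost without any 1 of the EB libraries except EB WT replicate 2. Smooth muscle markers had 2 rises and 5 falls among 8, and their summed level was 593 to 611 CPM in KD EBs and 299.8 to 307 CPM in WT EBs. Most of that sum was Acta2, at 527 ± 7.46 CPM in KD EBs and 141 ± 0.84 CPM in WT EBs (1.90, SE 0.03, adjusted p = 4.88e-29 by edgeR), while Des (−1.91, SE 0.07, adjusted p = 3.99e-21 by edgeR) and Cnn1 (−1.67, SE 0.14, adjusted p = 2.09e-11 by edgeR) fell.

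Of 10 endothelial markers 9 rose and 1 fell, with summed levels of 269 to 287 CPM in KD EBs and 139 to 148 CPM in WT EBs. Cdh5, the cadherin of vessels, rose by 4.09 (SE 0.29, adjusted p = 1.83e-13 by edgeR), and Emcn was at 0 in the 3 WT EB libraries. Extraembryonic endoderm markers had 6 rises and 4 falls among 12, at 1056 to 1087 CPM in KD EBs and 672 to 685 CPM in WT EBs. Fitting all 12 libraries together left 2 of these falls called. The list includes Gata6 and Sox17, the genes nearest to Foxf1 in profile below, and Gata6 is also on the lateral plate list. Trophoblast markers, which go with Hand1, had 3 rises and 5 falls among 8 tested, at 185 to 192 CPM in KD EBs and 157 to 161 CPM in WT EBs. The sum was thus higher in KD EBs although most tested genes fell. The rises were Cdx2 (65.5 ± 0.54 CPM in KD EBs, 32.45 ± 1.19 CPM in WT EBs), Eomes (36.0 ± 1.61 and 19.0 ± 0.96 CPM) and Plac1 (35.4 ± 2.5 and 6.35 ± 0.93 CPM). The giant cell gene Prl3d1 and the spongiotrophoblast gene Tpbpa were at 0 in all EB libraries. Motor neuron markers, which go with Isl1, had 1 rise and 1 fall among 5 tested, at 84.3 to 87.2 CPM in KD EBs and 129 to 137 CPM in WT EBs. Stmn2, a general neuronal gene, made up most of this sum, and Mnx1 was at 1.28 ± 0.30 CPM in KD EBs and 0.942 ± 0.34 CPM in WT EBs. Surface ectoderm and epithelium markers had 1 rise and 7 falls among 8 tested, at 2432 to 2549 CPM in KD EBs and 3638 to 3752 CPM in WT EBs. Pluripotent cell markers had 9 rises and 0 falls among 10, at 451 to 485 CPM in KD EBs and 245 to 255 CPM in WT EBs.

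**Figure D4:**
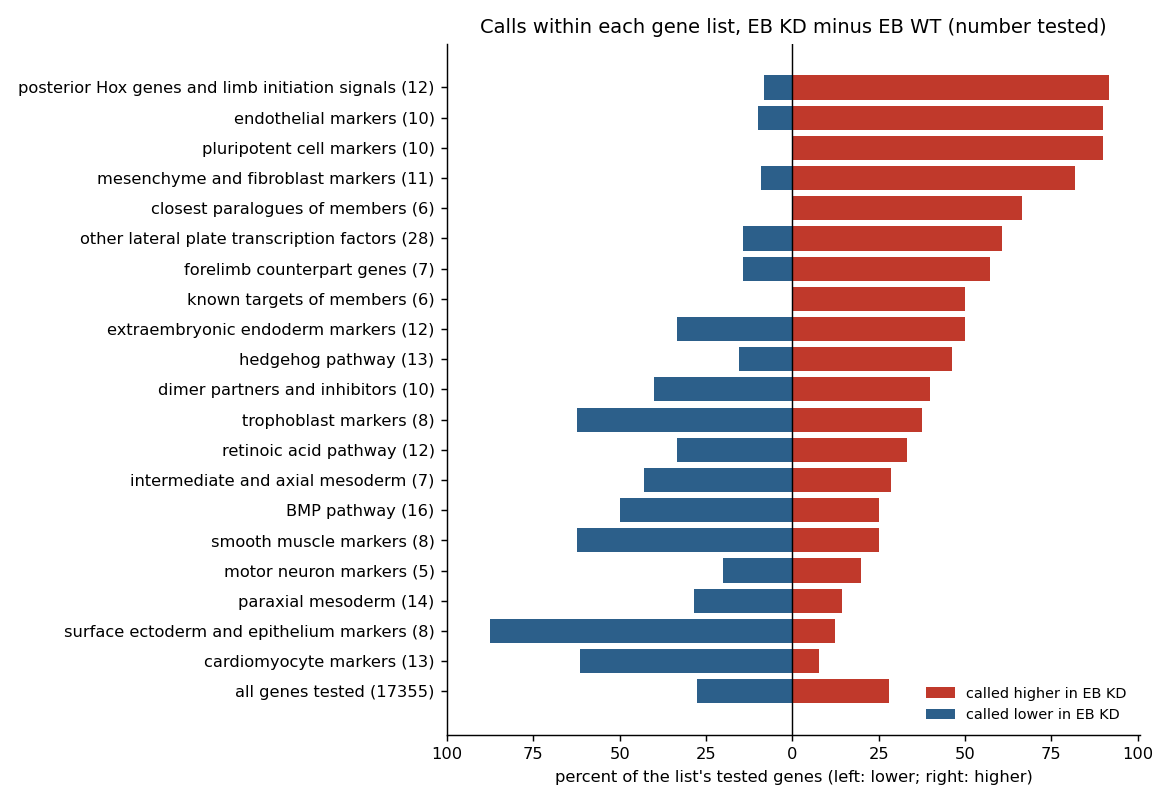
Share of each list's tested genes (number in brackets) called higher in KD EBs (right of 0, percent) or lower (left of 0), with all 17355 tested genes in the bottom row (28.0% higher, 27.7% lower). Posterior Hox genes and limb signals lie at the top, with 11 of 12 higher, and cardiomyocyte markers near the bottom, with 1 of 13 higher and 8 lower.

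Genes that overlap the members or stand next to them on the chromosome were tested in EBs. Of 20, 12 were higher in KD EBs, 1 was lower and 7 were not called. Over all 17355 tested genes, 28.0% were called higher and 27.7% lower. The reads were counted without regard to strand, so those of overlapping genes on opposite strands cannot be told apart where their exons coincide. Hand2os1 shares 461 exon bases, or 19.6% of those of Hand2. It was at 19.5, 22.8 and 15.5 CPM in the KD EBs and at 5.11, 4.91 and 4.23 CPM in the WT EBs (a log2 fold change of 2.02, SE 0.14, adjusted p = 1.70e-13 by edgeR). Per kilobase it stood at 2.78% ± 0.50 of Hand2 in KD EBs and 3.13% ± 0.35 in WT EBs, and these ranges overlapped. Fendrr, the noncoding RNA that starts 1276 bases from Foxf1 on the other strand, was at 36.7, 34 and 29.6 CPM in the KD EBs and at 11.5, 11.9 and 12.4 CPM in the WT EBs (1.48, SE 0.09, adjusted p = 1.10e-14 by edgeR). Per kilobase it made up 25.7% ± 2.66 of the Foxf1 level in KD EBs and 12.4% ± 0.66 in WT EBs, and these ranges did not overlap.

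Zadh2 begins 1.75 kb from Tshz1 on the other strand and was at 61.5, 66.7 and 66.2 CPM in the KD EBs and at 18.3, 15.6 and 17.5 CPM in the WT EBs (1.92, SE 0.07, adjusted p = 5.02e-20 by edgeR). Gm28760, a gene model within Pitx1 on the same strand that shares 108 exon bases with it, had 40, 38 and 35 counts in the KD EBs and 2, 0 and 4 in the WT EBs (4.2, SE 0.66, adjusted p = 2.81e-06 by edgeR). Farther away, Fmo1, the nearest tested gene on one side of Prrx1 at 379 kb, rose by 2.18 on the log2 scale (SE 0.48, adjusted p = 2.57e-04 by edgeR). Gm47071, at 166 kb from Pitx1, rose by 1.97 (SE 0.19, adjusted p = 3.83e-10 by edgeR). Gm34030, at 7.06 kb from Hand2, rose by 1.49 (SE 0.40, adjusted p = 0.00195 by edgeR). The call of Gm34030 was lost in the fit of all 12 libraries (edgeR adjusted p = 0.0563). Gorab, at 71.2 kb from Prrx1, rose by 0.49 (SE 0.09, adjusted p = 2.93e-05 by edgeR). Mthfsd, at 3.48 kb from Foxf1, rose by 0.35 (SE 0.07, adjusted p = 5.67e-05 by edgeR). Dpy19l1, at 215 kb from Tbx20, rose by 0.21 (SE 0.05, adjusted p = 3.06e-04 by edgeR). Tbx2, at 44.5 kb from Tbx4, did not pass, and Brip1, at 142 kb on its other side, was the gene called lower (−0.25, SE 0.10, adjusted p = 0.0310 by edgeR). That call was lost without any 1 of EB KD replicates 2 and 3 and EB WT replicate 3 (edgeR adjusted p from 0.0801 to 0.211). The calls of Sap30l beside Hand1 (0.17, SE 0.06, adjusted p = 0.0274 by edgeR) and of Fbxo8 beside Hand2 (0.23, SE 0.09, adjusted p = 0.0384 by edgeR) were lost without any 1 of EB KD replicates 2 and 3 and EB WT replicate 3 (edgeR adjusted p from 0.125 to 0.202 for Sap30l and 0.0971 to 0.289 for Fbxo8). Sap30l was also lost without EB WT replicate 1 (0.0559), and Fbxo8 with DESeq2 (0.0516), with no filter (0.0505) and in the fit of all 12 libraries (0.0824).

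**Figure D5:**
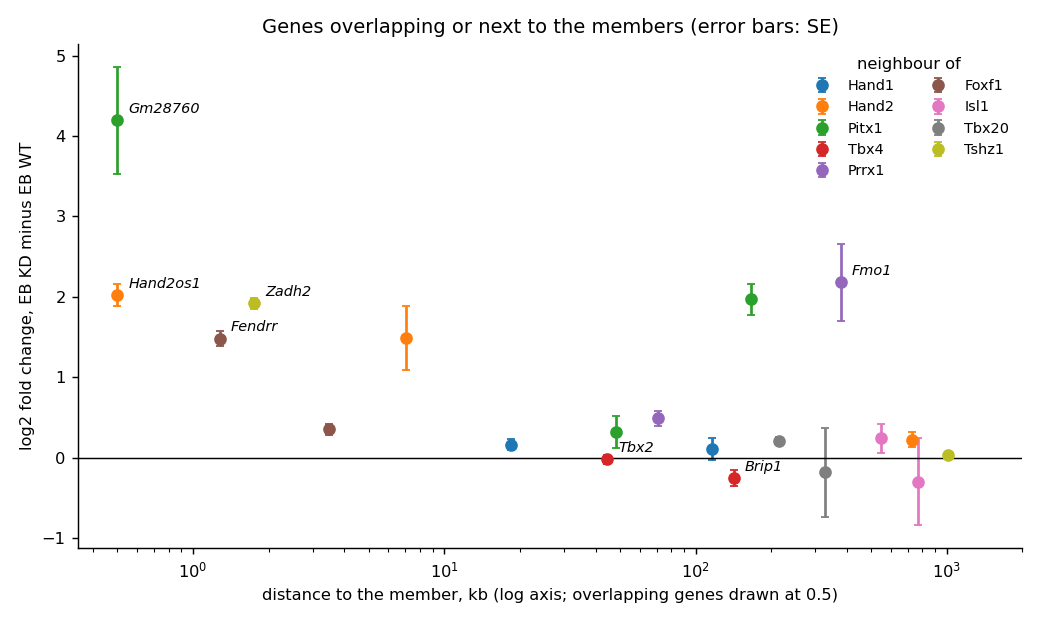
Log2 fold change of KD minus WT in day 6 EBs (y axis, error bars SE) of the 20 genes that overlap a member or flank it, against the distance to the member in kb (x axis, log scale, overlapping genes drawn at 0.5), coloured by member. The 4 genes within 2 kb lie between 1.48 and 4.2, Mthfsd at 3.48 kb lies at 0.35, and Tbx2 at 44.5 kb lies at −0.02.

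Profiles over the 12 libraries were compared by the root-mean-square distance of log2(CPM + 0.5) values centred on each gene's mean, for 11141 named genes. Prrx1 and Tshz1 were the closest pair of members (0.33 log2 units), followed by Pitx1 and Tshz1 (0.49) and Foxf1 and Tbx20 (0.50). For Hand1 the nearest member was Foxf1 (1.39) and the farthest Tbx4 (3.23). With members near 0 in ESCs, where the added 0.5 sets the floor, these distances also follow the level reached in EBs. The nearest other genes to Hand2 were the cadherin genes Cdh11 (0.23) and Pcdh7 (0.25). Those nearest to Pitx1 were the matrix gene Frem1 (0.39) and the chemokine gene Cxcl12 (0.46). Tbx4 was closest to Pgm5 (0.27) and Hoxa13 (0.32), a HOX gene of the distal limb and hindgut at 25.5 CPM in KD EBs and 1.81 CPM in WT EBs. Prrx1 was closest to the metalloproteinase gene Adamts1 (0.15) and to Svep1 (0.19), and Tshz1 to Frem1 (0.36) and Adamts1 (0.37).

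Members with small differences had other neighbours. Foxf1 was closest to Gata6 (0.17), which is on both the lateral plate and the extraembryonic endoderm list, and to the endoderm factor Sox17 (0.18). Isl1 was closest to Galnt7 (0.23) and Gpr161 (0.24), and Tbx20 to Cyp26a1 (0.29), which degrades retinoic acid, and Nrk (0.34). Hand1 was closest to the carbonic anhydrase gene Car4 (0.36), at 393 CPM in KD EBs and 732 CPM in WT EBs, and to Amot (0.59), at 1854 CPM in KD EBs and 1171 CPM in WT EBs. Amot and Hand1 differed in opposite directions between KD and WT EBs.

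In ESCs 4 genes of the lists were called between KD and WT. Over all 16081 tested genes, 97 or 0.603% were called. Meis2, a homeodomain cofactor of limb and heart, rose, at 5.00 ± 0.81 CPM in KD ESCs and 2.01 ± 0.23 CPM in WT ESCs (1.31, SE 0.25, adjusted p = 0.0454 by edgeR), as did the retinoic acid receptor gene Rarg (0.38, SE 0.07, adjusted p = 0.0495 by edgeR). Myl4, a myosin light chain, at 7.99 ± 0.90 CPM in KD ESCs and 16.2 ± 4.43 CPM in WT ESCs (−1.02, SE 0.20, adjusted p = 0.0488 by edgeR), and Amn (−1.04, SE 0.13, adjusted p = 0.00791 by edgeR) fell. Each of these 4 calls was lost without any 1 of the KD ESC libraries, with edgeR adjusted p from 0.0520 to 0.301, and those of Meis2, Rarg and Myl4 also without ESC WT replicate 1 or with library size alone as the scaling. Meis2 was lost without ESC WT replicate 3 as well (0.0539). Without ESC WT replicate 2 the 4 were still called and 1557 genes were called in all, against 97 with that library. The lists then held more calls too, with 4 pluripotent cell markers, 2 hedgehog genes and 2 lateral plate factors higher, against 0, 0 and 1 with that library. Since calls rose over all genes, nothing is read from these counts. Whether the KD effect differed between EBs and ESCs was tested by an interaction term for the 8 genes of the lists that were named and tested in ESCs, where 23.0% of all 18975 genes passed and 4 of the 8 did. Meis2, Rarg and Myl4, 3 of these 4, were named for their calls in the same ESC libraries, so their test is not independent of how they were chosen. The members could not be compared in this way without using the difference that selected them.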

How the data were processed

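RNA of 12 libraries (poly-A selected, paired reads) was sequenced. Per the file headers, the deposited counts per gene were made by the authors with featureCounts 2.0.3 on the Ensembl release 90 annotation of GRCm38, with no strand option and each mate counted separately. HISAT2 2.1.0 and DESeq2 1.18.1 are named in the submitters' processing notes. Exon lengths in bases are as deposited.

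From the counts, edgeR 4.0.16 (TMM, filterByExpr at min.count 10 and min.total.count 15, quasi-likelihood test with robust fitting) was run in R 4.3.3, within a stage for KD against WT and on all 12 libraries for the stage and interaction contrasts. Each SE was derived from the F statistic as |log2 fold change|/√F. P-values were adjusted over all tested genes (Benjamini-Hochberg), with calls under 0.05. Alternatives were DESeq2 1.42.0, library size alone, no filter, each library left out, a replicate block and other sets of libraries in the fit. The main edgeR fits were tried on simulated counts, with changes placed in well-counted genes only. DESeq2 and the other alternatives were not tried in this way.

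The members and lists were chosen with earlier results of these data known. A gene of the lists is not reported here and is left out of the list counts. Named were all members, all paralogues and targets, up to 4 called genes per list and comparison with the largest change and a mean log2 CPM of at least 1, the 2 nearest profiles per member with a mean log2 CPM of at least 2, and overlapping and flanking genes. Fgf8, Ttn, Mnx1, Fn1, Vim, Eomes and markers at 0 were named after their values were seen. Deviations of libraries with the same replicate number were weakly correlated (r from −0.089 to 0.138), and no pairing was used in the main fits. With 3 libraries per group this cannot exclude a shared culture or day.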

Additional observations from a re-analysis of the deposited data

Results flagged for a closer look

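For 4 genes named in the report the KD effect differed between EBs and ESCs by the interaction test of edgeR. Meis2, Rarg and Myl4 were named for their calls between KD and WT in the same ESC libraries, calls that were lost without any 1 KD ESC library, so the test is not independent of their choice. For Fgf10 the difference, EBs minus ESCs, was 0.754 on the log2 scale (SE 0.23, adjusted p = 0.0296), with 0.29 in EBs and −0.40 in ESCs, and the call was lost in 10 of 16 alternatives. For Meis2 it was −0.646 (SE 0.16, adjusted p = 0.00922), with 0.60 in EBs and 1.31 in ESCs. For Rarg it was −0.305 (SE 0.08, adjusted p = 0.0153), with 0.01 in EBs and 0.38 in ESCs. For Myl4 it was −1.715 (SE 0.38, adjusted p = 0.00426), with −2.81 in EBs and −1.02 in ESCs.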

How the results depend on the processing

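The number of genes called between KD and WT ESCs moved most: 97 as reported, 1030 with DESeq2, 36 with library size only, 1769 with no filter on low counts, 266 with the replicate block, 1999 in 1 fit of all 12 libraries, and 8 to 1557 with a library left out, the highest without ESC WT replicate 2. The cause was not tested. The sign turned for small differences: in ESCs Tshz3 was at 0.106 with the replicate block and Tbx20 at −0.025 in the fit of all 12 libraries, and in EBs Hhip was at 0.005 and Tbx2 at 0.039 in that fit. With a library left out, ESC values ran from −0.51 to 0.519 for Tbx4, −0.504 to 0.439 for Tbx20 and −0.582 to 0.397 for Tshz3. EB values ran from −0.062 to 0.363 for Shh, −0.372 to 0.187 for Hhip, −0.056 to 0.022 for Tbx2 and −1.111 to 0.203 for Gm10180. Scaling by library size only moved the median of all genes between ESCs and EBs by 0.532 in WT and 0.369 in KD cells, and no filter moved it by −0.172 in WT. It moved the ESC median by 0.11 and that of the interaction by −0.162. Depth limits the ESC values, where the members had 0 to 48 counts per library.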
